A study of Mus musculus with 6 samples.

Results

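The genes described here are the 10 that encode the shared signalling parts of the T cell receptor: the CD3 chains Cd3d, Cd3e, Cd3g and Cd247, the coreceptors Cd4, Cd8a and Cd8b1, the kinases Lck and Zap70, and the receptor brake Cd5. They were taken by symbol from the 55487 genes of the count table, and all 10 were among the 15114 genes that passed the filter on low counts. RNA was sequenced from 6 subcutaneous tumors of CT26.WT, a mouse colon carcinoma line of BALB/c origin, grown in 4-week-old male wild-type BALB/c mice. The control group of 3 tumors came from mice given PBS through the tail vein, and the IFN-γ group of 3 came from mice given IFN-γ by the same route repeatedly, so both groups carried the same transplanted line and differed in the injected agent. The study examined the effect of IFN-γ on colorectal tumor growth and on the immune response to it, and the RNA was sequenced to find genes altered in these tumors.

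A T cell reads antigen through a pair of variable receptor chains that cannot signal alone. CD3ε pairs with CD3δ and with CD3γ, the ζ chain encoded by Cd247 joins as a dimer, and tyrosines in the tails of these chains are phosphorylated by Lck when CD4 or CD8 brings it to the receptor. Zap70 then docks on the phosphorylated tails and passes the signal to adaptors, while CD5 dampens it. These RNAs are typical of T lymphocytes, and in bulk RNA fewer T cells and less of these RNAs per T cell cannot be told apart. Several members are also made by other cells: natural killer cells carry Cd247, Lck and Zap70, and some mouse dendritic cells carry Cd4 or Cd8a.

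The 3 genes Cd3g, Cd3d and Cd3e lie together on chromosome 9, within 40056 bases. In GENCODE annotation of GRCm38, Cd3g (ENSMUSG00000002033, chr9:44969572-44980431, minus strand) and Cd3d (ENSMUSG00000032094, chr9:44981786-44987339, plus strand) are transcribed away from each other, with 1355 bases between their starts. Cd3e (ENSMUSG00000032093, chr9:44998740-45009627, minus strand) runs towards Cd3d. The coreceptor genes Cd8b1 (ENSMUSG00000053044, chr6:71322788-71337494) and Cd8a (ENSMUSG00000053977, chr6:71373427-71379173) are also neighbours, 35933 bases apart on the plus strand, and Cd4 (ENSMUSG00000023274, chr6:124864692-124888221, minus strand) is elsewhere on the same chromosome. Cd247 (ENSMUSG00000005763, chr1:165788681-165877277, plus strand) and Zap70 (ENSMUSG00000026117, chr1:36761798-36782818, plus strand) lie on chromosome 1, Lck (ENSMUSG00000000409, chr4:129548344-129573641, minus strand) on chromosome 4 and Cd5 (ENSMUSG00000024669, chr19:10717116-10739002, minus strand) on chromosome 19.

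Promoter sequences from RefSeq (GRCm38.p6), each running from 250 bases before a transcription start to 50 after it, were found for 8 of the 10 genes, in 11 windows. Those of the 4 CD3 chains are shown because these genes varied together across the tumors, and that of Cd8a because it had the largest count of the members. Each is written 5′ to 3′ on the gene's strand, and capitals mark 6-base matches, on either strand, to an E-box (CAGGTG), an ETS-type motif (GGAAGT), a TCF/LEF-type motif (CTTTGA) or a GATA motif (AGATAA). The windows are chr9:44980382-44980681 (minus strand), chr9:44981536-44981835 (plus), chr9:45009562-45009861 (minus), chr1:165788431-165788730 (plus) and chr6:71373177-71373476 (plus).
Cd3g: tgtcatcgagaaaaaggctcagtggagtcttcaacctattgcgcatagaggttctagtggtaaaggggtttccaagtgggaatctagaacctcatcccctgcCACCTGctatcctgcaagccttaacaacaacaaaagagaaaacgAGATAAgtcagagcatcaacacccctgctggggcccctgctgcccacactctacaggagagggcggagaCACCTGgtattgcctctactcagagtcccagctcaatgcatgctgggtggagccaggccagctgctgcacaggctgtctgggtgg
Cd3d: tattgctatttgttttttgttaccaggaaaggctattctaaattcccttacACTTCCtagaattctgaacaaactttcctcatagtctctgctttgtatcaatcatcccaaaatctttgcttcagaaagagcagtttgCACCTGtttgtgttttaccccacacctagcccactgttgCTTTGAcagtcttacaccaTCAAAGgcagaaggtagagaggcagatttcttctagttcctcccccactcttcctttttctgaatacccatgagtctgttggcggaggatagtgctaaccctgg
Cd3e: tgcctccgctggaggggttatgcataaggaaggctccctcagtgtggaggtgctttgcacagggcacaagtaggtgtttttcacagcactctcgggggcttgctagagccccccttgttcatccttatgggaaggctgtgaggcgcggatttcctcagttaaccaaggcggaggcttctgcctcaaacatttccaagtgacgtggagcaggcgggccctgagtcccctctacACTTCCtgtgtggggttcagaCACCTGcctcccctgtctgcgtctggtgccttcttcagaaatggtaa
Cd247: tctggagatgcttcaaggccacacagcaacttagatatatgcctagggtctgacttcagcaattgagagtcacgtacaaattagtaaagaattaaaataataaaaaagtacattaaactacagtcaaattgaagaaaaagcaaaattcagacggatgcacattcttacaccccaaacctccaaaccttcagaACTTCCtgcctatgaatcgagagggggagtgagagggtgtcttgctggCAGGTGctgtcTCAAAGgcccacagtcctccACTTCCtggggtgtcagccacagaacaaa
Cd8a: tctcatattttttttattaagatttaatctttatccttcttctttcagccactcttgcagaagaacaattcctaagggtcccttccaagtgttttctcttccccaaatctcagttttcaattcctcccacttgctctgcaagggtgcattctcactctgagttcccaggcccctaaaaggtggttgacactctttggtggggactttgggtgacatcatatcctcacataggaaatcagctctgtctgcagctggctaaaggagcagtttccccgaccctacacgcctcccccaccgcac

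The E-box CAGGTG was present in 9 of the 11 member windows, against 20.2% of the 32851 mouse promoter windows of the same length, and each of the 4 CD3 chain windows held at least 1. The ETS-type GGAAGT was in 7 (23.8% of all windows), among them those of Cd3d, Cd3e and Cd247 and not that of Cd3g. CTTTGA was in 3 member windows (16% of all), TGTGGT, a RUNX motif, in 2 (16.8% of all), and AGATAA in 1, that of Cd3g (11.2% of all). The Cd8a window held none of the 5. No match overlapped one of another motif in the printed windows, and a match is a description of the sequence only.

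The libraries held 15759300 to 17559680 counts, so that a count of 0 would have allowed up to 0.169 to 0.188 CPM (counts scaled to a library of 1000000), and every member was far above this in every tumor. Member counts ran from 29 (Cd247 in IFN-γ tumor 3, exact Poisson 95% interval 19.4 to 41.6) to 516 (Cd8a in IFN-γ tumor 1). IFN-γ tumor 3 stood apart from the other IFN-γ tumors: with all 6 tumors edgeR called 17 genes between the groups, and without this tumor 493. Results are therefore given with and without it. The thymocyte genes Rag1 and Rag2 were at 0 in all 6 tumors. Of the colon epithelial markers, Cdx2 was at 0 in all 6 and Epcam and Vil1 fell under the filter, while Krt20 stood at 113 to 271 CPM.

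The CD3 chains were low but clearly measured RNAs, and all 4 followed 1 order: highest in IFN-γ tumor 2, next in IFN-γ tumor 1, with the controls below and IFN-γ tumor 3 at or near the bottom. Cd3g, the γ chain, was at 9.32, 13.0 and 13.0 CPM in control tumors 1 to 3 against 17.9, 23.7 and 9.40 CPM in tumors 1 to 3 of the IFN-γ group. Cd3d, the δ chain, was at 4.88, 5.81 and 4.97 CPM in the control tumors against 8.13, 11.1 and 2.10 CPM after IFN-γ. The first 2 IFN-γ tumors were thus above every control for both genes, whereas IFN-γ tumor 3 was level with the lowest control for Cd3g and below all controls for Cd3d. Cd3e, the ε chain that pairs with both of the others, was at 4.56, 7.10 and 7.09 CPM in the control tumors against 9.93, 9.96 and 3.28 CPM after IFN-γ. Cd247, the ζ chain, was at 2.31, 3.21 and 3.09 CPM in the control tumors against 4.35, 6.54 and 1.79 CPM after IFN-γ. The IFN-γ group spanned the whole control range for Cd3d, Cd3e and Cd247, and its lowest value lay just above the lowest control for Cd3g, so the groups overlapped for all 4. Cd247 counts are uncertain, since 56.4% of its exon bases are shared with Pou2f1 on the opposite strand and the sources used here do not say whether counting used strand.

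Both CD8 chains were also highest in the first 2 IFN-γ tumors. Cd8a, the α chain of the coreceptor that binds MHC class I, was at 11.9, 19.96 and 12.5 CPM in the control tumors against 30.0, 25.9 and 10.8 CPM after IFN-γ. It was the member with its highest value in IFN-γ tumor 1 rather than 2. Cd8b1, the β chain found with it on cytotoxic T cells, was at 2.81, 8.01 and 4.34 CPM in the control tumors against 8.65, 10.6 and 3.59 CPM after IFN-γ. Its control tumors alone differed by more than the group means did, with control tumor 2 nearly level with IFN-γ tumor 1. Cd4, the coreceptor that binds MHC class II, was at 7.06, 9.58 and 12.6 CPM in the control tumors against 11.6, 15.9 and 4.70 CPM after IFN-γ. IFN-γ tumor 1 lay inside the control range, and only IFN-γ tumor 2 was above it.

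The kinases and Cd5 were likewise lowest in IFN-γ tumor 3. Lck, which phosphorylates the CD3 and ζ tails, was at 15.5, 21.0 and 15.2 CPM in the control tumors against 20.1, 29.0 and 9.15 CPM after IFN-γ. Zap70, which docks on those tails, was at 3.38, 8.29 and 6.80 CPM in the control tumors against 9.87, 12.8 and 3.28 CPM after IFN-γ. Cd5 was at 3.50, 4.17 and 4.46 CPM in the control tumors against 5.11, 6.11 and 1.86 CPM after IFN-γ. For Lck, as for Cd4, IFN-γ tumor 1 was inside the control range, while for Zap70 and Cd5 both of the first IFN-γ tumors exceeded all controls.

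**Figure D1:**
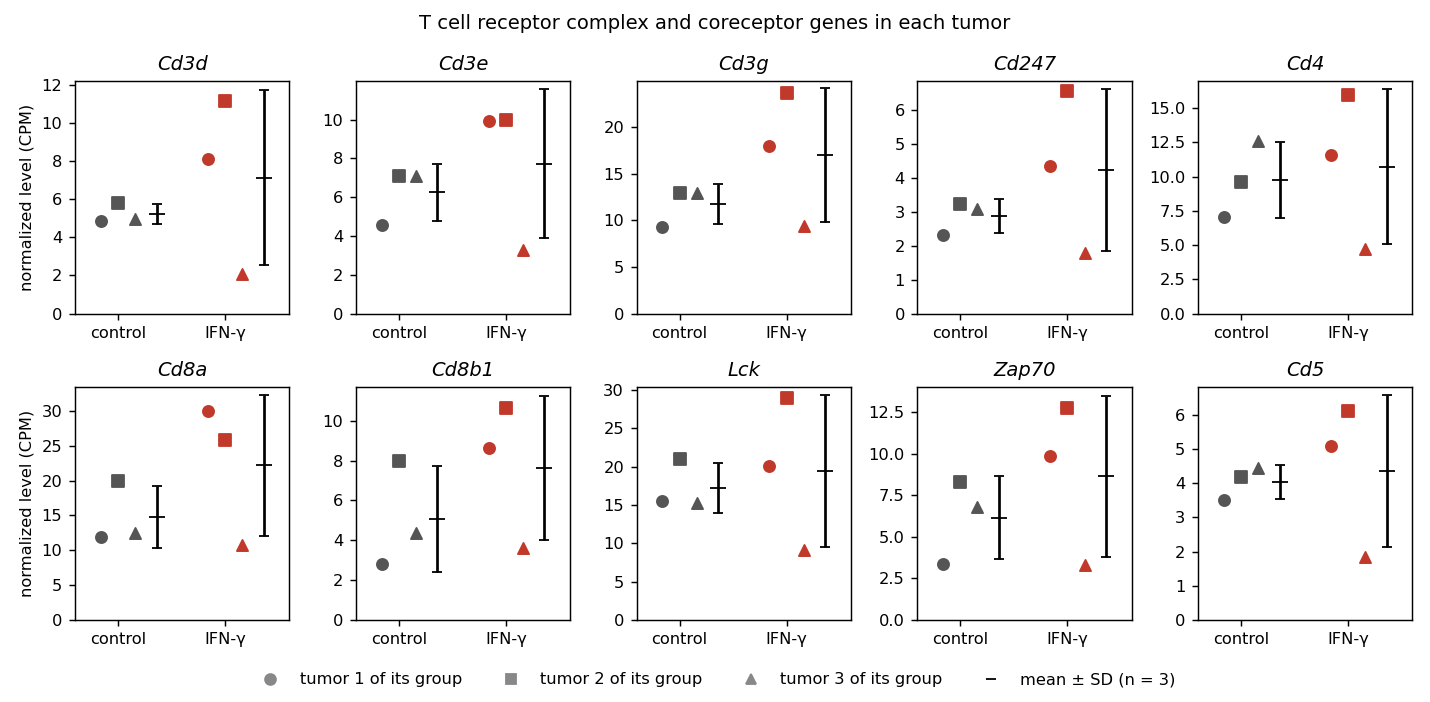
Level of each of the 10 genes in CPM (y axes, each from 0) in the 3 control tumors (grey) and the 3 IFN-γ tumors (red); the symbol marks the tumor number within its group and the bar gives the group mean ± SD (n = 3). In every panel IFN-γ tumors 1 and 2 lie above IFN-γ tumor 3, and the IFN-γ bar is wider than the control bar.

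No member passed the test between the groups when all 6 tumors were compared. In edgeR's quasi-likelihood test, with Benjamini-Hochberg adjustment over all 15114 genes, 0 of 10 members were called at 0.05, against 0.112% of all genes tested. None had an unadjusted p under 0.05 either, against 10.2% of all genes, and DESeq2 and limma-voom also called 0 members, against 1.24% and 0.086% of all genes. The log2 fold changes were positive for all 10 members, from 0.11 for Cd5 to 0.59 for Cd8b1, with a median of 0.47. Over all genes tested 50.4% were positive and the median was 0.0015. Standard errors ran from 0.31 to 0.48 and exceeded the fold change itself for 5 members, Cd3d, Cd3e, Cd4, Lck and Cd5. Cd8a, at 14.8 ± 4.49 CPM against 22.2 ± 10.1 CPM (control and IFN-γ, SD, n = 3 each), gave 0.59 (SE 0.36, edgeR adjusted p = 0.63). Cd3g, at 11.8 ± 2.11 against 17.0 ± 7.20 CPM (SD, n = 3 each), gave 0.53 (SE 0.31, edgeR adjusted p = 0.61), the smallest adjusted p among the members. Cd4, at 9.76 ± 2.79 against 10.7 ± 5.67 CPM (SD, n = 3 each), gave 0.14 (SE 0.40, edgeR adjusted p = 0.94). The groups overlapped for all 10 members, whereas they did not overlap for 15.1% of all genes tested.

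Without IFN-γ tumor 3, all 10 fold changes were larger, from 0.46 for Cd5 to 0.91 for Cd8b1, with a median of 0.84. In edgeR 8 of the 10 members had an unadjusted p under 0.05 in the direction of higher levels, against 9.6% of all genes, but 0 passed after adjustment, against 3.18% of the 15487 genes then tested. Closest were Cd3g (log2 fold change 0.81, edgeR adjusted p = 0.057), Cd3d (0.87, adjusted p = 0.061) and Cd8a (0.91, adjusted p = 0.064). The other 7 had edgeR adjusted p from 0.13 for Cd247 to 0.39 for Cd4. The choice of tool decided the call here: without this tumor DESeq2 called Cd8a (adjusted p = 0.0035), Cd3g (0.0053) and Cd3d (0.017), against 3.98% of all genes called higher, and limma-voom called Cd8a alone (adjusted p = 0.041), against 2.72% called higher. In simulated counts without this tumor, DESeq2 made more false calls (33) than edgeR (16) or limma-voom (15). Leaving out IFN-γ tumor 2 instead lowered all 10 fold changes, with 0 members called in edgeR. Those of Cd3d (to -0.028), Cd4 (to -0.27), Lck (to -0.24) and Cd5 (to -0.21) turned below 0.

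**Figure D2:**
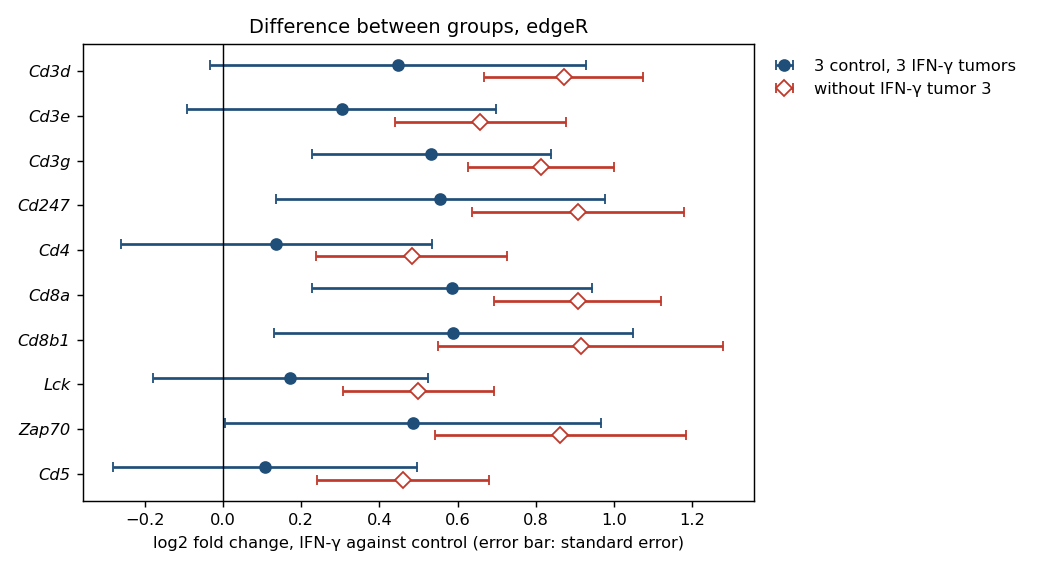
Log2 fold change of each member, IFN-γ group against control group, from edgeR (x axis) with its standard error as the bar, for all 6 tumors (filled circles) and without IFN-γ tumor 3 (open diamonds). With all 6 tumors the estimates lie between 0.11 and 0.59, and without that tumor between 0.46 and 0.91.

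The members ranked the 6 tumors in much the same order. IFN-γ tumor 2 was above every control for all 10 members, an order found for 29.6% of all genes tested, and IFN-γ tumor 1 for 8 (27.3% of all genes), the exceptions being Cd4 and Lck. IFN-γ tumor 3 was below every control for 8 members (29.7% of all genes), with Cd3g and Cd8b1 the exceptions. For 6 members, Cd3d, Cd3e, Cd247, Cd8a, Zap70 and Cd5, both held at once, with IFN-γ tumors 1 and 2 above and tumor 3 below all controls, an order found for 4.32% of all genes. These counts were made after the values were seen, and the members share their tumors, so they are a description. Summed over the 10 members the level was 65.2, 100.1 and 84.1 CPM in the control tumors against 125.6, 151.7 and 49.9 CPM after IFN-γ. Against the control mean, IFN-γ tumor 2 stood at 1.51-fold (Cd5) to 2.28-fold (Cd247) and IFN-γ tumor 1 at 1.17-fold (Lck) to 2.03-fold (Cd8a). IFN-γ tumor 3 stood at 0.403 of the control mean for Cd3d, the lowest, and 0.800 for Cd3g, the highest. The mean of IFN-γ tumors 1 and 2 was 2.21-fold (Cd3g) to 4.58-fold (Cd3d) the level in tumor 3. Among the controls, tumor 1 was the lowest for 9 of 10 members, all but Lck (31.4% of all genes).

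**Figure D3:**
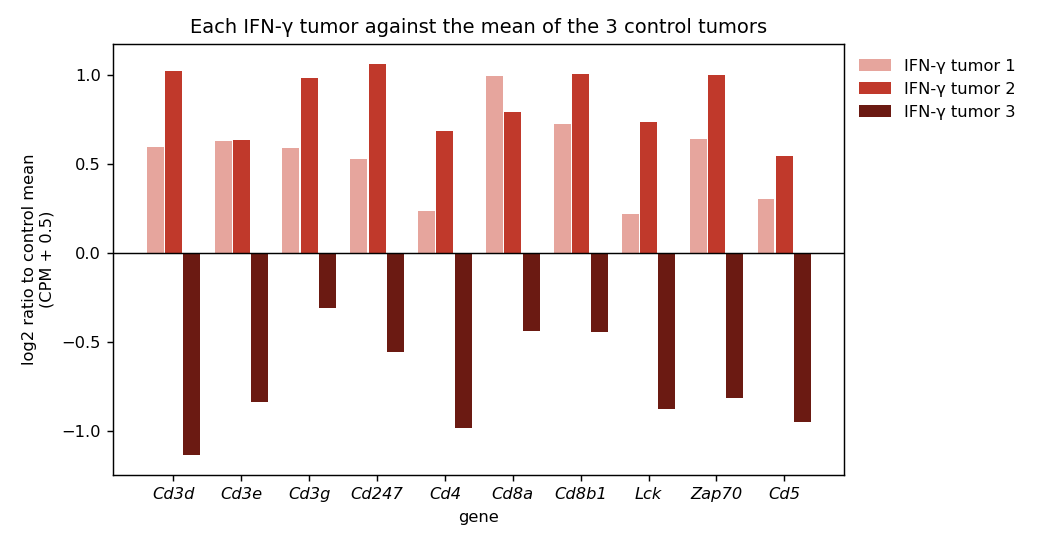
Log2 ratio of each IFN-γ tumor to the mean of the 3 control tumors, computed from CPM + 0.5 (y axis), for each member (x axis); shades of red mark the 3 tumors. Tumors 1 and 2 are above 0 for all 10 genes and tumor 3 is below 0 for all 10, most for Cd3d (-1.14) and least for Cd3g (-0.31).

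Levels were compared between genes per kilobase of the longest protein-coding GENCODE transcript, as means over the 6 tumors. Cd3g was highest at 14.1 ± 5.42 CPM per kb (SD, n = 6), followed by Lck at 8.39 ± 3.08 and Cd8a at 5.91 ± 2.59. Next came Cd3e at 4.78 ± 1.86, Cd8b1 at 4.27 ± 2.14, Cd3d at 3.81 ± 1.92, Cd4 at 3.30 ± 1.30 and Zap70 at 3.29 ± 1.66 CPM per kb. Cd5 at 1.41 ± 0.485 and Cd247 at 1.20 ± 0.576 CPM per kb were lowest. Within tumors, Cd3g exceeded Lck in 6 of 6 and Zap70 exceeded Cd5 in 6 of 6, by 0.75 ± 0.31 and 1.14 ± 0.42 on the log2 scale (SD, n = 6). Neighbours among the 5 genes from Cd3e to Zap70 could not be ordered. Each such pair differed by less than the SD of its log2 ratio, and its first gene was the higher in only 3 or 4 of 6 tumors. Farther apart in this order, Cd3e exceeded both Cd4 and Zap70 in every tumor. Lck exceeded Cd8a in 5 of 6 tumors, by 0.53 ± 0.36. Cd8a exceeded Cd3e, and Cd5 exceeded Cd247, also in 5 of 6, by less than the SD of their log2 ratios. The order depends on the length used: over merged exons, which include retained introns, Lck came first, then Cd8a and Cd3g, and Cd3e fell to place 8. Cd247 was last by either length, and its level is uncertain for the bases it shares with Pou2f1.

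**Figure D4:**
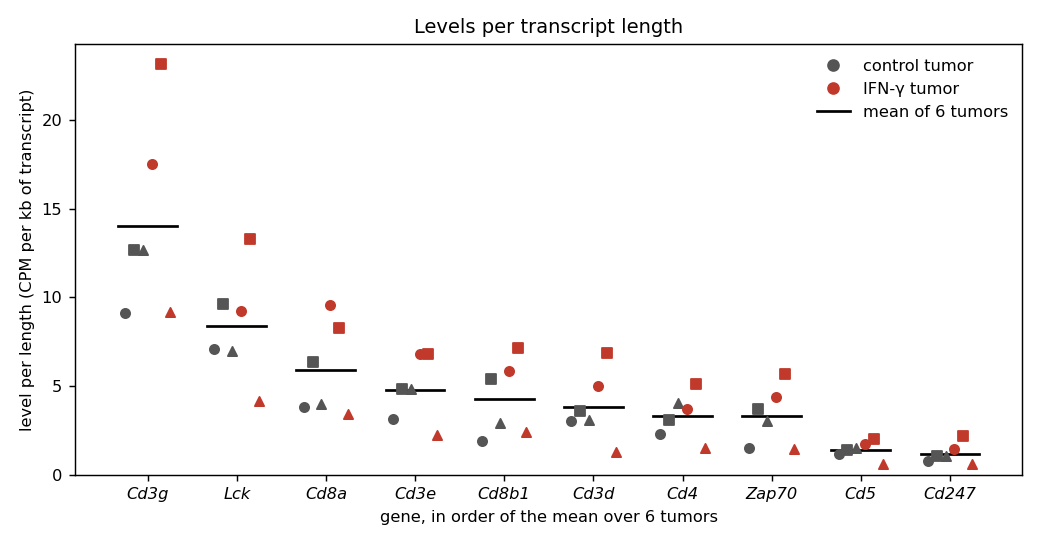
Level per length in CPM per kilobase of the longest protein-coding transcript (y axis) for each member (x axis, ordered by the mean over 6 tumors, black line); control tumors are grey, IFN-γ tumors red, and the symbol gives the tumor number in its group. Cd3g is highest at a mean of 14.1 and Cd247 lowest at 1.20, and the points of neighbouring genes from Cd3e to Zap70 overlap.

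Ratios within a tumor compare members with each other without reference to the total. Since some dendritic cells carry Cd4 or Cd8a, they do not measure T cell subsets directly. The count ratio of Cd8a to Cd4 was 1.68, 2.08 and 0.991 in the control tumors against 2.59, 1.62 and 2.29 after IFN-γ. In control tumor 3 these genes were level, at 219 Cd8a and 221 Cd4 counts, and Cd8a was the higher in every other tumor. On the log2 scale (CPM + 0.5) the mean ratio was 0.57 ± 0.53 against 1.05 ± 0.33 (control and IFN-γ, SD, n = 3 each), a difference of 0.47 (exact two-sided permutation p = 0.3, adjusted over 6 ratios 0.6). Cd8a to Cd3e, the CD8 chain against the pan-T ε chain, differed by 0.32 (exact permutation p = 0.2, adjusted 0.6), and here IFN-γ tumor 3, at a count ratio of 3.28, was the highest of the 6. The remaining ratios, Cd4 to Cd3e, Lck to Cd3e, Cd247 to Cd3e and Cd8a to Cd8b1, differed by -0.15, -0.13, 0.19 and -0.050, with exact permutation p from 0.4 to 0.9. With 3 tumors against 3 the smallest p this test can give is 0.1, so none could have passed 0.05.

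Of the receptor chains that the CD3 chains accompany, the 4 most abundant constant regions were, like most members, lowest in IFN-γ tumor 3. Of the 7 constant-region genes, 5 passed the filter and 0 were called in edgeR, with 0 at an unadjusted p under 0.05. Trac, the α constant region, was at 3.38, 4.17 and 4.74 CPM in the control tumors against 6.33, 9.41 and 3.09 CPM after IFN-γ. Trbc1 and Trbc2, the β constant regions, ran from 4.94 to 10.4 CPM in the control tumors against 3.96 to 15.5 CPM after IFN-γ, and both were lowest in IFN-γ tumor 3. Trbc1 and Trbc2 are near-identical copies, so reads can be split between them. The chains of γδ T cells were scarcer: Trdc was at 1.11 to 3.42 CPM, Trgc2 at 0.313 to 1.97 CPM, and Trgc1 and Trgc4 did not pass the filter.

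Further down the pathway, 22 adaptors and enzymes, 18 brakes and 12 other T cell genes, surface receptors and transcription factors, were read from the same fit. With the constant regions these lists held 58 genes, 55 of them tested, and edgeR called 0 with all 6 tumors. Unadjusted p fell under 0.05 for 7 higher and 1 lower of these 55, against 10.2% of all genes in either direction. The median log2 fold change was 0.12 over the adaptors and enzymes, 0.29 over the brakes and 0.16 over the other T cell genes, each below the 0.47 of the members. The lists were mixed, with 18 of 22, 13 of 17 and 8 of 12 tested genes positive. Themis (1.08, SE 0.43), Icos (0.72, SE 0.40) and Pdcd1 (0.72, SE 0.27) were among those above every member. The most abundant adaptors and enzymes had small fold changes: Nfatc3, a calcium-driven transcription factor, gave -0.0049 (SE 0.068), Plcg1, a phospholipase, 0.011 (SE 0.083) and Bcl10, a link to NF-κB, -0.038 (SE 0.088), while Fyb, an adaptor to integrins, gave 0.36 (SE 0.23). Those 4 are also made outside T cells. Without IFN-γ tumor 3, 6 of these genes were called higher in edgeR (background 2.46% of all genes) and 1 lower (0.723%): Grap2 (log2 fold change 0.90, adjusted p = 0.021), an adaptor of the LAT complex, Themis (1.43, 0.039), which tunes receptor signalling, the inhibitory receptor Pdcd1 (0.94, 0.041), the surface receptor Cd6 (1.09, 0.029), a relative of Cd5, the phosphatase Ptpn6 (0.63, 0.018), the adaptor Sla (0.57, 0.028) and, lower, Ptpn22.

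Ptpn22, a phosphatase that acts on Lck and Zap70, had a fold change opposite in sign to those of the members. It was at 99.0, 119.0 and 94.2 CPM in the control tumors against 64.2, 70.9 and 78.9 CPM after IFN-γ, so the groups did not overlap and IFN-γ tumor 3 was the highest of its group. The log2 fold change was -0.54 (SE 0.11, edgeR adjusted p = 0.20), and DESeq2 on all 6 tumors called it (adjusted p = 0.0048), against 0.443% of all genes called lower, as did edgeR with no filter on low counts (adjusted p = 0.0099) and edgeR without IFN-γ tumor 3 (adjusted p = 0.025). It is named here because it passed in these alternatives. It did not pass in limma-voom with all 6 tumors (adjusted p = 0.21). Nor did it pass in edgeR under the other scalings, the other filter, the replicate block or without any other single tumor. Per kilobase, Ptpn22, Ptpn6 and Sla averaged 32.0, 50.2 and 15.5 CPM over the 6 tumors, against 1.20 to 14.1 for the members. Which cells carried these RNAs was not tested.

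Ptprc, which encodes CD45 of leukocytes, was at 132, 181 and 175 CPM in the control tumors against 252, 236 and 107 CPM after IFN-γ. The summed level of Cd3d, Cd3e and Cd3g per 100 CPM of Ptprc was 14.2, 14.3 and 14.3 in the control tumors against 14.3, 18.9 and 13.8 after IFN-γ, so 5 of 6 tumors lay between 13.8 and 14.3 and IFN-γ tumor 2 alone was higher. This ratio was chosen after its values were seen, and its evenness is that of the sum: in IFN-γ tumor 3 Cd3d was at 1.96 per 100 CPM of Ptprc, against 2.83 to 3.69 in the control tumors, and Cd3g at 8.78, against 7.06 to 7.39. Cd247 per 100 CPM of Ptprc was 1.68 to 1.77 in the same 5 tumors and 2.76 in IFN-γ tumor 2. Cd8b1 and Lck were less even, at 2.13 to 4.49 and 7.99 to 12.3 per 100 CPM of Ptprc over the 6 tumors.

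**Figure D5:**
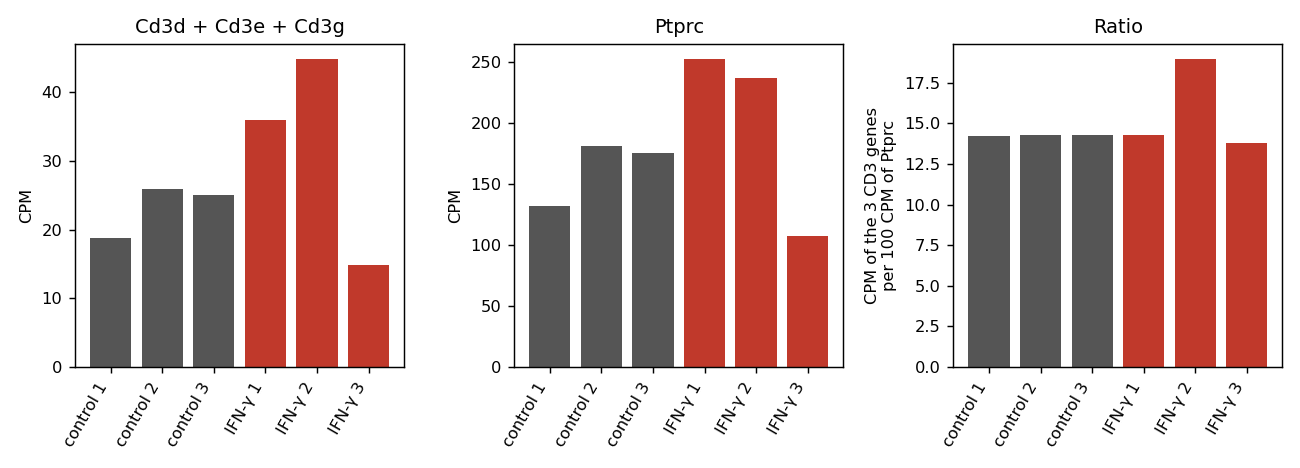
Summed level of Cd3d, Cd3e and Cd3g in CPM (left), level of Ptprc in CPM (middle) and their ratio as CPM of the 3 CD3 genes per 100 CPM of Ptprc (right), 1 bar per tumor, controls grey and IFN-γ tumors red, all axes from 0. The sum runs from 14.8 to 44.8 CPM, while the ratio is 13.8 to 14.3 in 5 tumors and 18.9 in IFN-γ tumor 2.

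The summed level of the 7 natural killer markers also put IFN-γ tumors 1 and 2 above all controls and tumor 3 below them. It was 44.6, 58.9 and 72.9 CPM in the control tumors against 96.1, 111.4 and 35.1 CPM after IFN-γ. Control tumor 3 was the highest control here, where control tumor 2 was for the sum of the members. Of the 7, 6 were tested, Klra8 was at 0 throughout, and no gene had an unadjusted p under 0.05. The most abundant were Klrk1, at 12.6 to 44.1 CPM over all tumors, and Gzma, at 13.9 to 37.1 CPM. Of the defining genes, Ncr1 was at 6.06, 11.1 and 11.1 CPM in the control tumors against 11.3, 15.7 and 3.83 CPM after IFN-γ. Klrb1c was at 0.688, 1.41 and 2.57 CPM against 1.74, 2.20 and 0.618 CPM, so its highest value was in a control tumor. The 7 dendritic markers summed to 29.8 to 41.8 CPM in the control tumors against 57.9, 56.6 and 36.9 CPM after IFN-γ, and the 7 macrophage markers to 3026 to 3675 and to 4467, 5491 and 3302 CPM. Unadjusted p was under 0.05 for 10.2% of all genes tested, for 3 dendritic genes, all higher, and for 3 macrophage genes higher and 1 lower. For these 2 lists IFN-γ tumor 3 was inside the control range, whereas for the members and the natural killer markers it was below it. Of the 5 B cell markers tested, only 2 had a positive log2 fold change, and the median was -0.75. Those 2 were Cd22 and Cd79b. Cd22 was at 6.50 to 8.12 CPM in the control tumors against 6.12 to 10.996 CPM after IFN-γ, and Cd79b at 3.66 to 4.06 against 4.64 to 5.63 CPM. Another 2 of the 5 had an unadjusted p under 0.05, both lower after IFN-γ. The 5 neutrophil markers summed to 28.9 to 37.1 CPM in the control tumors against 36.5 to 46.8 CPM, mostly Csf3r at 21.3 to 25.4 against 24.0 to 38.8 CPM, while S100a8 and S100a9 gave log2 fold changes of 0.16 and -0.082. Of the 6 lymph node stromal markers only Cxcl13 passed the filter, at 11.004 to 32.1 CPM in the control tumors against 2.91 to 13.7 CPM after IFN-γ (log2 fold change -1.51, edgeR adjusted p = 0.39, unadjusted p = 0.022), opposite in sign to the members, and Ccl21a and Madcam1 were at or near 0. The 12 genes induced by IFN-γ, among them Irf1, Gbp2 and Cxcl9, summed to 1116, 1932 and 1563 CPM in the control tumors against 3170, 3323 and 1500 CPM after IFN-γ, so that IFN-γ tumor 3 was within the control range for these too, and 7 of them had an unadjusted p under 0.05. In edgeR 0 genes of any of these lists passed after adjustment with all 6 tumors, against 0.112% of all genes. Of all genes, it called 2.46% higher and 0.723% lower without IFN-γ tumor 3. Without IFN-γ tumor 3 it called higher Klrk1 of the natural killer list, 4 macrophage genes (Adgre1, C1qa, Cd68 and Lyz2), Csf3r of the neutrophil list and 9 of the 12 genes induced by IFN-γ, and lower Krt20 of the colon epithelial list, whose summed level was 167 to 189 CPM in the control tumors against 131, 124 and 285 CPM after IFN-γ. The part of these cells and of the IFN-γ response in the members' levels was not tested.

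The gene outside the members whose tumor-to-tumor pattern was closest to the CD3 chains was Cd27. Likeness was the root mean square difference, over the 6 tumors, between a gene's centred log2(CPM + 0.5) and the mean centred profile of Cd3d, Cd3e and Cd3g, and its median over all genes tested was 0.56. The 8 nearest genes outside the members were Cd27 (0.044), a costimulatory receptor of lymphocytes, Prkcq (0.068), the kinase PKCθ of the receptor pathway, Ms4a4b (0.096), Crtam (0.097), Gzmb (0.103), granzyme B, Il2rb (0.103), a subunit of the IL-2 and IL-15 receptors, Nkg7 (0.113) and Gimap7 (0.120). In all, 109 genes outside the members were nearer than 0.2. Of the members that did not define the profile, Cd247 was nearest (0.104), then Cd5 (0.161), Lck (0.188), Cd4 (0.199), Zap70 (0.237) and Cd8a (0.253), and Cd8b1 was the farthest (0.325). None of the 8 genes passed the edgeR test with all 6 tumors (log2 fold changes 0.30 to 0.47). Without IFN-γ tumor 3, Ms4a4b (log2 fold change 0.67, edgeR adjusted p = 0.028) and Gzmb (0.73, adjusted p = 0.046) passed. The 8 were chosen for a profile that is high in IFN-γ tumors 1 and 2 and low in tumor 3, so a higher level without tumor 3 is largely fixed by that choice and is no result.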

How the data were processed

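RNA-seq was done on total RNA of 6 CT26.WT tumors, 3 per group. The deposited values are raw read counts for each gene, made by the authors without scaling, and their processing notes name HISAT2 and mm10. The counter, its annotation and its use of strand are not given in the sources used here. Nothing says more than that the tumors are separate samples, so p-values measure the spread between these tumors.
Counts were tested with edgeR 4.0.16 (R 4.3.3): default filter on low counts, TMM factors, quasi-likelihood test, group as the only term, Benjamini-Hochberg adjustment over all genes tested, threshold 0.05. The standard error is the log2 fold change divided by the square root of F. CPM values use the TMM-scaled totals of the genes tested. Totals were 15759300 to 17559680 counts, and intervals and floors cover counting error only. Ratios used log2(CPM + 0.5) and exact permutation over tumors (SciPy 1.17.1). Lengths came from GENCODE M21. The scripts were tested on simulated data with 200 genes changed 2-fold, with means and spread taken from all 6 tumors. With all 6 tumors, DESeq2, edgeR and limma-voom made 34, 9 and 8 false calls there, beside 141, 130 and 133 right ones. Without IFN-γ tumor 3 they made 33, 16 and 15, beside 141, 129 and 126. No libraries appeared to be duplicates.
Members and gene lists were chosen with earlier results of these data known. Named genes were the 10 members, list genes past the threshold, the 4 most abundant genes of a list, detected constant regions and the 8 nearest profiles. Genes outside this rule were named after their values were seen, and 1 B cell gene and the sum it enters are not reported here. Alternatives were other scalings (library size, upper quartile, DESeq2's size factors), other filters, DESeq2 1.42.0, limma 3.58.1 (voom), a replicate block, other pseudocounts (0.1 and 1) and fits without 1 tumor. DESeq2 and limma-voom without IFN-γ tumor 3 were added after seeing the data.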

Additional observations from a re-analysis of the deposited data

How the results depend on the processing

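With all 6 tumors, every scaling, filter and tool called 0 members. Of 160 comparisons of a member's fold change with an alternative, 148 kept both direction and side of the threshold, 8 changed sign and 4 gained a call. The 4 were made without IFN-γ tumor 3, where the number of members called higher was 3 in DESeq2 and 1 in limma-voom. Cd5 fell to -0.050 in limma-voom and to -0.0094 with the replicate number as a block. With 1 tumor left out the members' fold changes ran from -0.028 to 0.87 (Cd3d), 0.077 to 0.66 (Cd3e), 0.22 to 0.81 (Cd3g), 0.097 to 0.91 (Cd247), -0.27 to 0.48 (Cd4), 0.31 to 0.91 (Cd8a), 0.27 to 1.09 (Cd8b1, the highest without control tumor 2), -0.24 to 0.50 (Lck), 0.091 to 0.86 (Zap70) and -0.21 to 0.46 (Cd5), and 0 members were called in each such fit. Without IFN-γ tumor 2, Cd3d, Cd4, Lck and Cd5 were at the low ends of these ranges, and for Cd4, Lck and Cd5 this was farther below 0 than the fold change with all 6 tumors was above it. Cd4 was also below 0 without control tumor 1 (-0.048) and Cd5 without IFN-γ tumor 1 (-0.022). The difference in the log2 ratio ran from -0.18 to 0.13 for Cd8a to Cd8b1 and from -0.30 to 0.022 for Lck to Cd3e.
In the receptor constant, adaptor, brake and other T cell lists, the number called was 0 to 6 higher and 0 to 1 lower with 1 tumor left out, both highest without IFN-γ tumor 3. Without that tumor DESeq2 called 17 higher (3.98% of all genes) and 1 lower, and limma-voom 7 higher (2.72% of all genes) and 1 lower. DESeq2 and edgeR with no filter called 1 lower with all 6 tumors. The single lower gene was Ptpn22 each time. With a pseudocount of 1 in place of 0.5, the nearest-profile list shared 5 of its 8 genes. Deviations of same-numbered tumors from their group means had correlations of -0.24, -0.0047 and -0.22, and differently numbered pairs -0.31 to 0.39. With 3 tumors a group these values cannot decide whether the numbers mark anything shared. Under the replicate block 0 members and 7 genes in all were called, against 17 without it. The causes were not tested. Depth limits Cd247 and Cd5 most, at 29 and 30 counts in IFN-γ tumor 3.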

Other observations

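Cd3g and Cd3d, whose starts lie 1355 bases apart, kept a steady ratio except in IFN-γ tumor 3. The Cd3g count was 1.91, 2.23 and 2.61 times the Cd3d count in the controls and 2.21 and 2.13 times it in the first 2 IFN-γ tumors, and 4.47 times it in IFN-γ tumor 3. As a share of both genes' counts, Cd3g made up 65.6 to 72.3% in the other 5 tumors and 81.7% in IFN-γ tumor 3 (exact Clopper-Pearson 95% interval 75.4 to 87.0%, counting error only, 152 of 186 counts). This pair was chosen after its values were seen, and 1 tumor gives no test.
Xcr1 and Clec9a, markers of the cross-presenting dendritic subset, had positive log2 fold changes, as the members did. They were picked after their values were seen. Among the other dendritic genes, Itgae gave 0.61, Flt3 0.46, Ccr7 0.12, Siglech 0.070 and Zbtb46 -0.17. Xcr1 was at 4.44, 9.92 and 6.11 CPM in the control tumors against 17.6, 15.1 and 8.78 CPM after IFN-γ (log2 fold change 1.02, SE 0.34, edgeR adjusted p = 0.37). Clec9a was at 1.31, 3.04 and 2.97 CPM in the control tumors against 5.34, 5.44 and 3.15 CPM after IFN-γ (0.92, SE 0.36, edgeR adjusted p = 0.44). Neither passed the test, with or without IFN-γ tumor 3, and the groups overlapped for Xcr1.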
